A study of Mus musculus with 48 samples.

Results

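The genes described here bear symbols of proteins of the cytosolic ribosome. They were read in 6 tissues of mice that had undergone Roux-en-Y gastric bypass (RYGB) or sham surgery. Members were chosen by gene symbol: every line whose symbol was Rpl or Rps followed by a number (with an optional a, l, x or y), together with Rplp0, Rplp1, Rplp2 and Rpsa, counted once per Ensembl identifier. The symbols gave 79 identifiers among 15541 genes in all tables, of which 2 belonged to other genes and were set aside. The 77 genes left comprised 46 of the large (60S) subunit and 31 of the small (40S) subunit. They were listed unevenly: 76 in white adipose tissue (WAT), 68 in liver, 56 in ileum, 57 in jejunum, 59 in duodenum and 60 in muscle, and 52 were present in every table.

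All animals were male C57BL6 mice made obese by a high fat diet, and both surgical groups then received an elemental liquid diet. The labels place the samples at day 9, and the mice had been fasted overnight and killed at 10 am, so the sham group shared the obesity, the diets and the fast with the RYGB group. RNA sequencing was carried out on 48 libraries: 4 RYGB and 4 sham from liver, from subcutaneous WAT and from gastrocnemius muscle, 3 RYGB and 4 sham from duodenum and from jejunum, and 5 of each from ileum. The gut samples were villi scraped after EDTA treatment. Expression was given as CPM, counts scaled to a common library total,, with no count table, so the depth of a library is unknown.

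Several facts of the libraries bear on what follows. The sums of 4 hepatocyte genes in liver, 4 adipocyte genes in WAT, 4 muscle fibre genes in muscle and 4 enterocyte genes in the gut samples were at least 6146 CPM in every library of the tissue so labelled. The 2 ileal enterocyte genes Fabp6 and Slc10a2 together reached only 0.2 to 25.4 CPM in the sham ileum and 1.7 to 101.1 CPM in the RYGB ileum. The ileal RYGB libraries were all sequenced in a lane that held no ileal sham library, so in that tissue an effect of lane and an effect of surgery cannot be told apart. The labels do not say whether libraries of a group came from separate mice, and the p-values below measure the spread between these samples only.

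A ribosome joins a small subunit, which reads the messenger RNA, to a large subunit, which forms the peptide bond, and each holds a fixed set of proteins around ribosomal RNA. Most of the proteins are needed in equal numbers, and their genes tend to be expressed together and follow the growth of the cell. Many of their transcripts begin with a run of pyrimidines, the TOP element, through which the mTOR pathway controls their translation. Ribosomal protein genes have also left many processed pseudogenes in mammalian genomes, so reads from them can match several places.

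The start of the transcript is therefore shown for members on which the results turn, from 10 bases before to 20 bases from the start site in RefSeq (GRCm38.p6), 5′ to 3′ on the strand of the gene. Capitals mark a run of pyrimidines of at least 7 bases near the start site, which can extend beyond the window shown. In Rps15a and Rps27l this run lay wholly before the start site, and so outside the transcript as annotated. Rpl5 and Rplp0 are included as members without such a run. Rps24 and Rps27l each had another start site without such a run, which is not shown.
Rps15a (chr7:118116128-118116157, minus strand): TTTCTgccatcttccctcgccggtgagtga
Rpl12 (chr2:32961702-32961731, plus strand): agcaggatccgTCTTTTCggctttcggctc
Rpl13a (chr7:45128726-45128755, minus strand): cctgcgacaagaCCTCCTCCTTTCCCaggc
Rps24 (chr14:24490668-24490697, plus strand): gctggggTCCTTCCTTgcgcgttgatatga
Rpl15 (chr14:18270967-18270996, minus strand): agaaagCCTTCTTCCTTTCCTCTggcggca
Rps27l (chr9:66946076-66946105, plus strand): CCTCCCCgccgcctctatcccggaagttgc
Rpl5 (chr5:107900518-107900547, plus strand): cgtcgcttgcgtgctggtggtgctacatac
Rplp0 (chr5:115559457-115559486, plus strand): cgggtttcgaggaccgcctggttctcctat

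Of the 77 members, 56 had a RefSeq start in the table used, with 68 start sites. A pyrimidine run of at least 7 bases, reaching within 10 bases before or after the start, was found at 32 of these 68 sites (47.1%). The share was 19.7% of 32851 start sites of all genes. In the 300-base windows around the same sites, searched on both strands, the letters CCGGAAG stood in 36.8% against 8.9%, AAGATGGCG in 5.9% against 1.4%, CACGTG in 11.8% against 7.2% and TATAAA in 8.8% against 13.6%. For the next comparison a member with several starts was counted by its longest run. Within WAT the median difference between the surgical groups, on the log2(CPM + 1) scale, was 0.88 in the 31 members with a run and 0.75 in the 24 members without. Within jejunum it was 0.39 and 0.46. These are descriptions of letters and levels, with no test.

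Members differed in how much of their sequence was unique. A protein-coding transcript in the basic set of GENCODE M21 was found for 76 members, all but Rps4l. Among these, a median of 53.4% of the 50-base windows of the transcript occurred also in a transcript of another gene. The median number of other genes sharing such a window was 10.5, and the largest was 123, for Rpl7a, a component of the large subunit. Rpl3l and Rpl39l were among the members that shared no window, whereas Rpl5, Rpl9, Rpl10 and Rpl35 shared more than 90%. Across members, the share of windows and the sham level per kilobase of transcript were inversely related in each tissue, with Spearman's rho of -0.51 in liver, -0.43 in WAT and -0.52 in muscle, and of -0.45, -0.52 and -0.48 in duodenum, jejunum and ileum. The points are genes that share libraries and reads, and the relation was not tested.

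**Figure D1:**
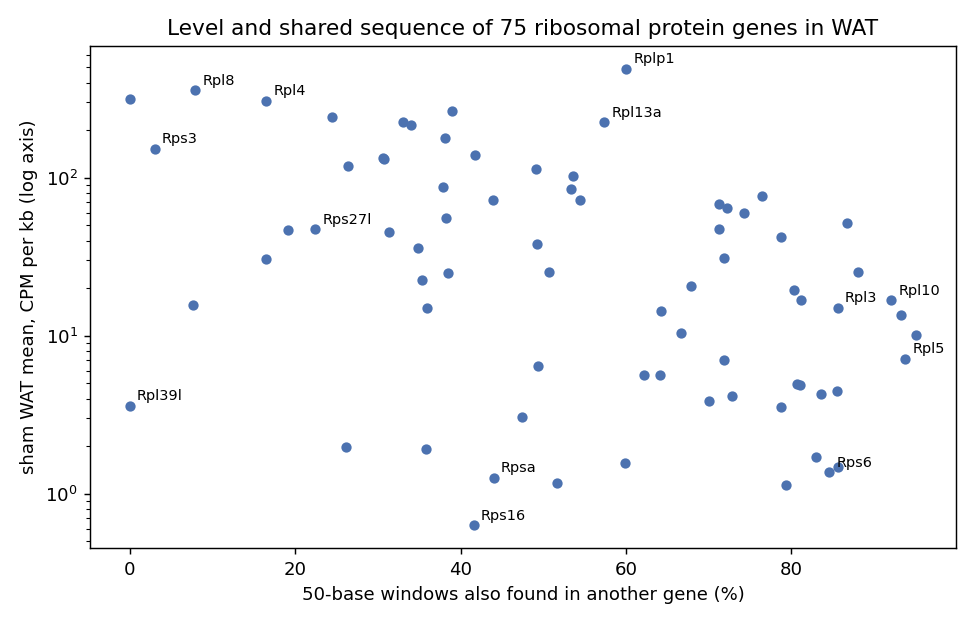
Each point is 1 of 75 ribosomal protein genes in the sham libraries of WAT, with the percent of its 50-base transcript windows found in another gene on the horizontal axis and its mean CPM per kilobase of transcript on the vertical log axis. Levels tended to be lower where more sequence was shared (Spearman's rho -0.43), and Rpl8, with 7.9% shared, was among the highest, although Rplp1 stood highest with 60% shared.

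Per kilobase of transcript, Rpl4 was among the 4 highest members in every tissue. In sham WAT the highest level was that of Rplp1, an acidic protein of the ribosomal stalk, at 490.1 CPM per kb, followed by Rpl8 at 359.7. Rpl8 led in sham liver at 226.5 CPM per kb and Rplp1 in sham muscle at 342.5. Rps27l, a paralog of Rps27 known as a p53 target, was highest in sham duodenum at 86.8 CPM per kb and in sham jejunum at 85.9, and Rpl4 in sham ileum at 76.1. The lowest members were Rpl28 in liver (0.93 CPM per kb), Rps16 in WAT (0.63), Rpl21 in muscle (0.78) and duodenum (0.54), Rpl28 in jejunum (1.04) and Rpl35 in ileum (1.27). Rpl3l, a muscle paralog of Rpl3, was listed in muscle only and held 295.6 CPM per kb there, the fourth highest level in that tissue, whereas its partner Rpl3 had 85.6% of its windows shared with other genes.

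The tissues differed in how much of the library was assigned to the listed members. In the sham libraries the members of each table summed to 4222 ± 267 CPM in WAT (SD, n = 4), 3318 ± 273 in muscle (n = 4), 2661 ± 286 in liver (n = 4), 1004 ± 173 in duodenum (n = 4), 845 ± 307 in jejunum (n = 4) and 839 ± 72.1 in ileum (n = 5). The duodenum, jejunum and ileum did not differ beyond their spread, and all 3 lay below the other tissues, although fewer members were listed there than in WAT or liver. Of the 52 members in every table, 45 had their highest sham level in WAT, 4 in liver and 3 in muscle. The members that varied most between the tissues were Rps19 and Rps24, which are mutated in Diamond-Blackfan anaemia, the stalk proteins Rplp2 and Rplp1, and Rps2, with an SD over the tissue means of 1.46 for Rps19 on the log2(CPM + 1) scale. Rpl7a, Rpl18, Rps27l, Rpl29 and Rpl41 varied least, with an SD of 0.43 for Rpl7a. The tables were normalised separately by tissue, so these levels are descriptions.

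After RYGB, ribosomal protein genes were higher in WAT as a group, and only a handful of calls were made elsewhere. Fitted with limma in each tissue over all genes averaging at least 1 CPM, a filter that every listed member passed, 67 of 76 members in WAT rose after RYGB at an adjusted p under 0.05 and none fell, against 23.5% of all 13379 genes higher and 13.8% lower. In liver 3 of 68 members rose, against 7.03% of all 11807 genes higher and 1.58% lower. In ileum 1 of 56 rose, against 2.29% of 10735 genes higher and 5.68% lower. No member was called in jejunum (4.64% of 10854 genes higher and 5.17% lower), in duodenum (0% of 10850 genes higher and 0.00922% lower) or in muscle (0% of 11966 genes in either direction). At an unadjusted p under 0.05, limma gave 71 of 76 members in WAT (50% of all genes), 29 of 68 in liver (26.9%) and 21 of 59 in duodenum (18.8%). It gave 6 of 60 in muscle (14.6% of all genes), 5 of 57 in jejunum (24.6%) and 1 of 56 in ileum (26.5%), shares below those of all genes.

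By estimate the members leaned the same way in all tissues. The difference was positive in 75 of 76 members in WAT (59% of all genes), 63 of 68 in liver (71%), 53 of 60 in muscle (62.9%), 57 of 59 in duodenum (66.6%), 57 of 57 in jejunum (45.5%) and 53 of 56 in ileum (38.4%). The median difference of the members, on the log2(CPM + 1) scale, was 0.85 in WAT, where the median of all genes was 0.11. It was 0.34 in liver (all genes 0.13), 0.13 in muscle (0.05), 0.26 in ileum (-0.09), 0.43 in jejunum (-0.04) and 0.43 in duodenum (0.12). Scaling each library by the median ratio to the other libraries brought the median of all genes to between -0.01 and 0.02 in each tissue, a shift of more than 0.1 in liver, WAT and duodenum, and left members' medians of 0.20, 0.74, 0.08, 0.34, 0.49 and 0.35 in liver, WAT, muscle, duodenum, jejunum and ileum.

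**Figure D2:**
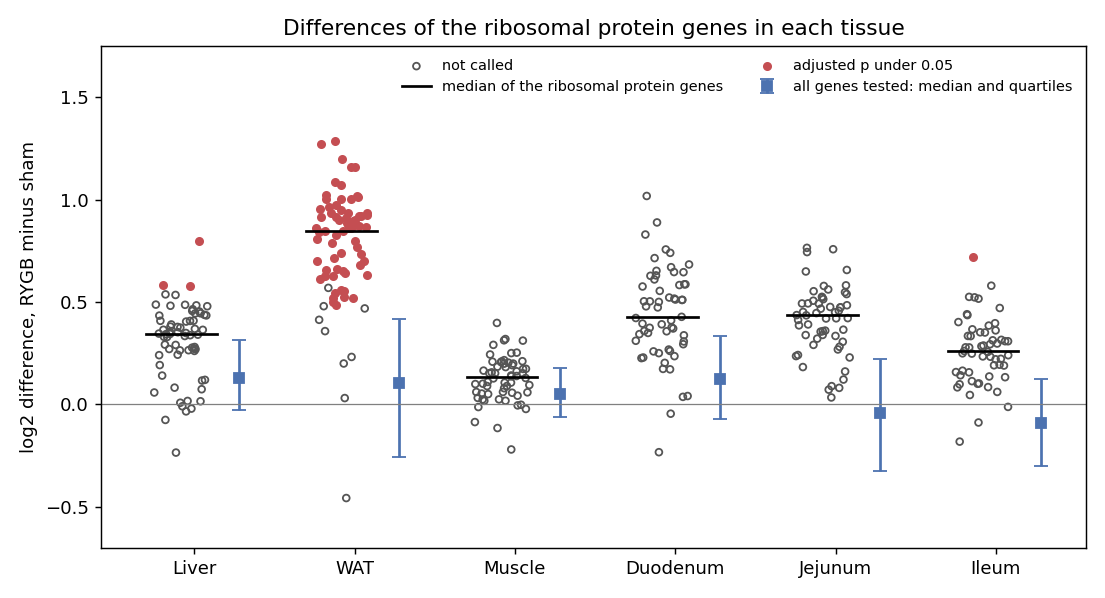
Each point is a ribosomal protein gene, with its difference between RYGB and sham on the log2(CPM + 1) scale on the vertical axis and the tissue on the horizontal axis. Filled points are calls at an adjusted p under 0.05, black bars the members' medians and squares with bars the median and quartiles of all genes tested, and the points lie mostly above 0 in every tissue, highest in WAT with a median of 0.85.

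Of the 52 members in every table, 45 were higher by estimate in all 6 tissues, and the share of all genes with this pattern was not computed. The members moved together within a library, so they are not separate observations. In ileum all 52 were above the sham mean in RYGB 4 and in RYGB 5, but 8 in RYGB 1 and 2 in RYGB 3. Another 6 were higher in 5 tissues: Rpl5, Rpl10, Rpl10a and Rpl15 were lower in muscle, Rpl35a in duodenum and Rpl9 in ileum. Rps27l was the exception, with a positive estimate in 3 tissues. Rpl5, Rps15a and Rps20 were called in both liver and WAT. With 67 of 76 members called in WAT, a member called in liver was likely to be called there too. The share of all genes called in both tissues was not computed.

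**Figure D3:**
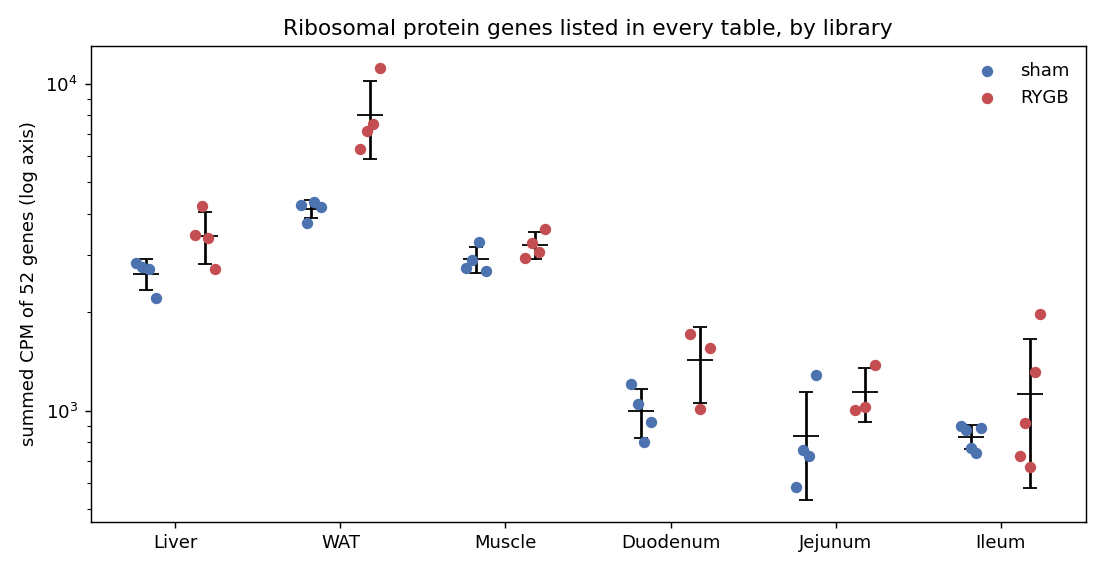
Each point is 1 library, with the summed CPM of the 52 ribosomal protein genes listed in every table on a vertical log axis, by tissue and surgery, and the bars give the group mean and SD. The RYGB and sham libraries of WAT do not overlap, at 6332 to 11196 against 3755 to 4333 CPM, and in the ileum 2 of 5 RYGB libraries stand well above the rest.

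In WAT the members of the 4 RYGB libraries summed to 6449.7, 7280.7, 7634.4 and 11352.2 CPM, and those of the 4 sham libraries to 4374.4, 3834.1, 4420.6 and 4257.5 CPM. The lowest RYGB sum was above the highest sham sum, and RYGB 4 stood well above the other three. Across the 52 members in every table the median fold over the sham mean was 1.53, 1.71, 1.76 and 2.54 in RYGB 1 to 4. In 66 of 76 members every RYGB library was above every sham library, against 26.1% of all genes, and in no member was every RYGB library below. A fold change of at least 1.5 was reached by 59 of the 67 called members, and by 3231 of the 4980 called among all 13379 genes.

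Both subunits rose in WAT. Of the large subunit 40 of 45 members rose, with a median difference of 0.80 on the log2(CPM + 1) scale, and of the small subunit 27 of 31, with a median of 0.89. The ratio of summed 60S to 40S CPM over the 52 members in every table was 1.37 to 1.39 in the RYGB libraries and 1.46 to 1.49 in the sham libraries, so the groups did not overlap. In ileum this ratio was likewise lower after RYGB, at 1.33 to 1.40 against 1.41 to 1.5, in duodenum it was higher, with the nearest libraries at 1.3997 and 1.3983, and in liver, muscle and jejunum the groups overlapped.

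The largest increase among the members in WAT was that of Rps15a (ENSMUSG00000008683, chr7:118104372-118116188, minus strand), a protein of the small subunit. Its level was 131.7, 160.6, 176.7 and 266.8 CPM in the RYGB libraries and 74.0, 64.0, 80.0 and 72.1 CPM in the sham libraries. The lowest RYGB library was above the highest sham library, and the difference was 1.29 ± 0.20 (SE) on the log2(CPM + 1) scale (limma, adjusted p = 0.00274). Rpl12 (chr2:32961559-32965345, plus strand), a protein at the base of the stalk where elongation factors bind, stood at 15.5, 19.9, 18.9 and 30.5 CPM after RYGB and at 8.6, 7.4, 9.2 and 6.7 CPM after sham surgery. These groups also did not overlap, with a difference of 1.27 ± 0.20 (adjusted p = 0.00299). Rpl13a (chr7:45125558-45128761, minus strand), known for silencing inflammatory transcripts when released from the ribosome, was at 411.7, 467.7, 540.0 and 818.1 CPM against 235.6, 211.2, 253.7 and 240.8 CPM. It rose by 1.2 ± 0.20 (adjusted p = 0.00401), and as with Rps15a and Rpl12 its highest value was in RYGB 4.

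Among the proteins of the small subunit, Rpsa, which forms part of the mRNA exit region and is also known as the laminin receptor, was at 5.7, 6.3, 6.4 and 8.6 CPM after RYGB and 2.4, 2.3, 2.9 and 2.2 CPM after sham surgery, a rise of 1.16 ± 0.15 (adjusted p = 0.00127). Rps3, which lies at the mRNA entry channel and also takes part in DNA repair, was among the most abundant members, at 477.9, 543.9, 598.0 and 945.3 CPM against 304.2, 261.3, 304.6 and 297.0 CPM. It rose by 1.09 ± 0.20 (adjusted p = 0.00597). The Diamond-Blackfan anaemia gene Rps24 was at 121.9, 148.1, 160.0 and 227.5 CPM against 79.8, 70.5, 79.5 and 73.0 CPM and rose by 1.07 ± 0.17 (adjusted p = 0.00341). The groups did not overlap in any of these 3 genes. Rps19, another gene of that disease, rose by 1.02 ± 0.15 (adjusted p = 0.00256), and Rps20 by 1.00 ± 0.17 (adjusted p = 0.00425). Rps27a, made as a fusion with ubiquitin, was at 8.1, 8.9, 8.9 and 11.8 CPM against 4.3, 3.9, 5.1 and 4.7 CPM and rose by 0.92 ± 0.14 (adjusted p = 0.00304). Rps2, which lies at the mRNA entry channel beside Rps3, rose by 0.65 ± 0.14 and Rps4x by 0.89 ± 0.19 (adjusted p = 0.00901 and 0.00903). Rps6, the substrate of S6 kinase that serves as a readout of mTOR signalling at the protein level, was listed in WAT only. It was at low levels of 1.7 to 2.6 CPM after RYGB and 1.1 to 1.3 CPM after sham surgery. It rose by 0.52 ± 0.14 (limma, adjusted p = 0.0224), although 84.6% of the windows of its transcript occurred in other genes.

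The stalk of the large subunit, which recruits the translation factors, is made of Rplp0, Rplp1 and Rplp2. In WAT Rplp0 (chr5:115559467-115563727, plus strand) was at 299.3, 336.9, 340.4 and 558.4 CPM after RYGB and 194.2, 178.0, 198.9 and 185.4 CPM after sham surgery, a rise of 0.97 ± 0.19 (adjusted p = 0.00633). Rplp1 was at 359.3, 357.2, 380.3 and 609.1 CPM against 272.6, 208.2, 253.7 and 243.8 CPM, and Rplp2 at 191.2, 179.2, 175.0 and 240.1 CPM against 127.2, 108.1, 136.5 and 132.4 CPM. Both rose, by 0.77 ± 0.19 (adjusted p = 0.0152) and 0.63 ± 0.13 (adjusted p = 0.00823). Among the core proteins, Rpl3, close to the peptidyl transferase centre, rose by 0.80 ± 0.18 (adjusted p = 0.0125), Rpl4, which lines the exit tunnel, by 0.86 ± 0.21 (adjusted p = 0.0157), Rpl8 by 0.93 ± 0.17 (adjusted p = 0.00498) and Rpl10a by 0.74 ± 0.16 (adjusted p = 0.00910). Rpl5, which with Rpl11 can bind and inhibit Mdm2, rose by 0.64 ± 0.13 (adjusted p = 0.00867), from 14.1, 15.0, 15.2 and 14.2 CPM in the sham libraries to 18.5, 23.7, 23.4 and 28.8 CPM. Its partner Rpl11 rose by 0.68 ± 0.15 (adjusted p = 0.0119) and Rpl23, which can also bind Mdm2, by 0.84 ± 0.20 (adjusted p = 0.0131). Rpl10, which is added late in the assembly of the large subunit, rose by 0.70 ± 0.17 (adjusted p = 0.0142), and Rpl35a by 0.92 ± 0.16 (adjusted p = 0.00494). Rpl38, Rpl10l and Rps27 had no line used here.

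The 9 members in WAT that did not pass were Rpl15, Rpl23a, Rpl28, Rpl31, Rpl39l, Rps4l, Rps7, Rps25 and Rps27l. Rpl23a, which sits at the exit of the peptide tunnel, had an adjusted p of 0.05001 just above the threshold at a difference of 0.47, and Rpl31 and Rpl15 had differences of 0.48 (adjusted p = 0.0533) and 0.36 (adjusted p = 0.0590). Rps27l was at 27.0, 25.9, 22.8 and 20.8 CPM after RYGB and 22.5, 25.8, 23.9 and 21.9 CPM after sham surgery. The groups overlapped throughout, with a difference of 0.03 ± 0.11 (adjusted p = 0.840) that became -0.08 under the median ratio scaling. Rpl39l was scattered in both groups, at 0.9 to 4.4 CPM against 0.8 to 7.2 CPM, whereas its paralog Rpl39, at the peptide exit, rose by 1 ± 0.14 (adjusted p = 0.00196). Rps4l (chr6:148354656-148355598, plus strand), by its symbol a paralog of Rps4x, had no protein-coding transcript in the annotation used. It was the only member with a negative estimate. Its level was 21.1, 22, 20.9 and 8.2 CPM after RYGB and 32.9, 25.6, 19.2 and 19.0 CPM after sham surgery. These groups overlapped, and the difference was -0.46 ± 0.31 (adjusted p = 0.262). With lane as a covariate it was -0.65 (adjusted p = 0.0307).

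**Figure D4:**
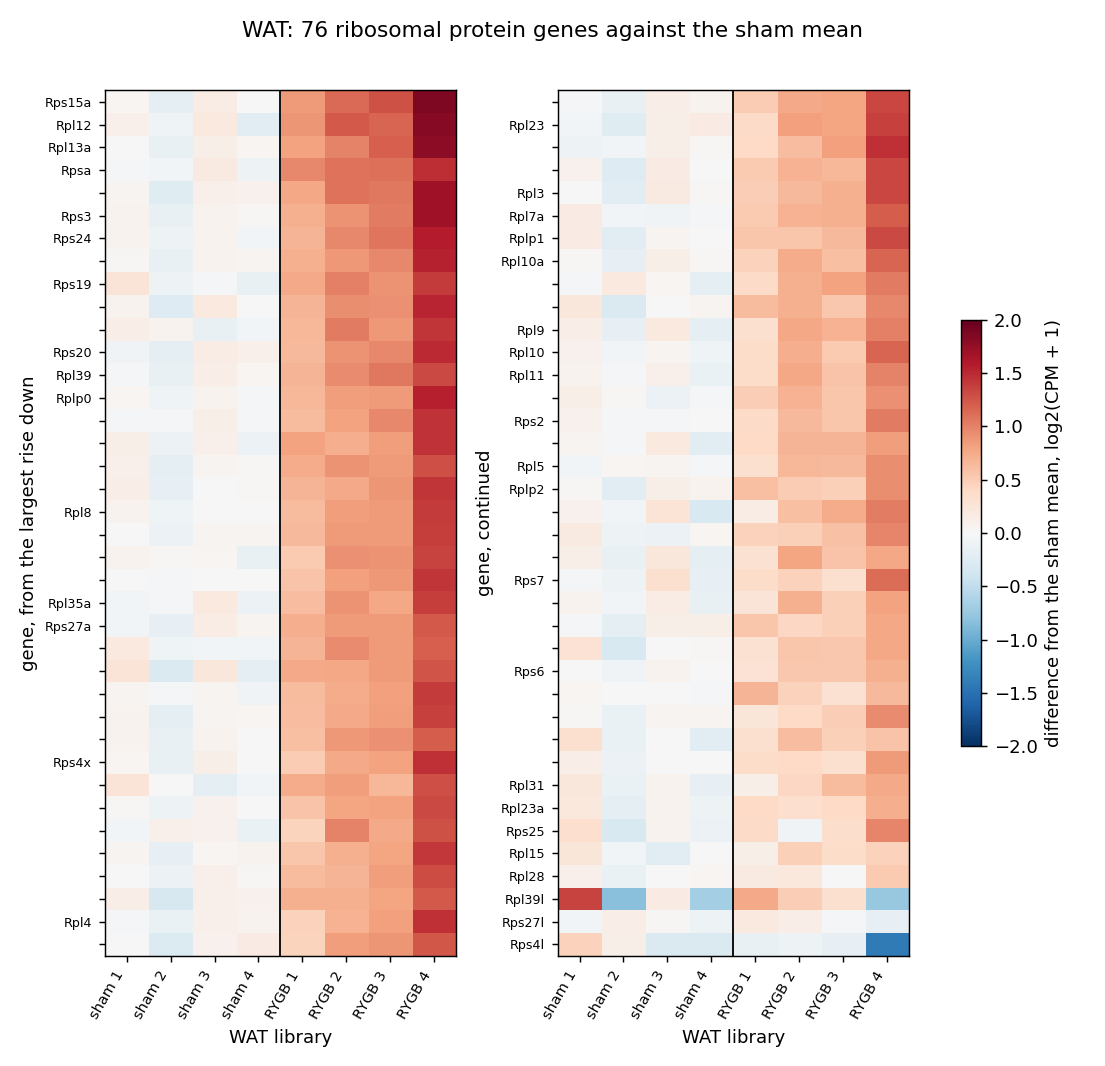
Each row is a ribosomal protein gene in WAT, with labels for some of the genes, and each column 1 library, and the colour gives the difference of log2(CPM + 1) from the sham mean of the gene. The RYGB columns are raised for nearly all genes, most in RYGB 4, with Rpl39l, Rps27l and Rps4l in the lowest rows as exceptions.

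Markers of other cell types moved with the members in WAT. The sum of 6 B cell genes, all of them listed, was 809.0, 1247.6, 1544.5 and 2091.1 CPM in RYGB 1 to 4 and 6.7 to 16.3 CPM in the sham libraries, and that of 6 T cell genes was 305.0, 327.7, 450.3 and 1146.4 CPM against 11 to 19.8 CPM. No gene of either list was at 0 in any library. Both sums and the members' sum had the same order over the 4 RYGB libraries. The 2 plasma cell genes listed were at 13.7 to 221.9 CPM against 2.0 to 12.8 CPM. Both keratinocyte genes listed were called lower, with a sum of 0.1 to 0.3 CPM after RYGB and 2.2 to 120.8 CPM after sham surgery. The 4 adipocyte genes were all lower by estimate and none was called, with sums of 6146 to 11430 CPM against 11624 to 19224 CPM. The 4 macrophage genes listed were also all lower by estimate, and 1 was called, although their sums overlapped at 597 to 952 CPM against 882 to 1438 CPM. In bulk tissue, a change in the number of cells of a type and a change in RNA per cell cannot be told apart. The part of these markers in the rise of the members was not tested.

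The rise in WAT was seen without any library and within lanes. Leaving out each library in turn gave 58 to 69 called members, with 65 when RYGB 4 was left out, and a median difference of 0.67 to 0.95. Within lane 5, with 2 libraries of each group, 75 of 76 members were higher after RYGB with a median of 0.79, and within lane 6, with 1 of each, 73 of 76 with a median of 1.27. Members under 50% shared sequence rose in 31 of 34 cases (median 0.92) and those with at least 50% in 36 of 41 (median 0.74).

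Genes with related roles were read from lists in the same WAT fit. Of the other TOP genes, which encode translation factors and their partners, 13 of 18 rose and none fell, with a median of 0.56. The translation elongation factor gene Eef1b2 rose by 0.92 ± 0.18 (adjusted p = 0.00682), Npm1, a nucleolar chaperone, by 0.89 ± 0.20 (adjusted p = 0.0112) and Eef1a1 by 0.59 ± 0.20 (adjusted p = 0.0450). Of the ribosome biogenesis genes 17 of 25 rose and none fell, with a median of 0.51, including the rRNA methyltransferase Fbl with 0.70 ± 0.18 (adjusted p = 0.0186). The proteins of the mitochondrial ribosome moved less, with 21 of 74 genes called higher, none lower and a median of 0.24, close to the share of 23.5% of all genes called higher. Of 16 genes that control translation, Rictor, a subunit of mTOR complex 2, rose by 0.72 ± 0.18 (adjusted p = 0.0152), whereas the mTOR inhibitor Deptor fell by 0.89 (SE 0.22, adjusted p = 0.0170), the stress-induced Sesn2 by 0.45 (SE 0.15, adjusted p = 0.0423) and the elongation factor kinase Eef2k by 0.41 (SE 0.14, adjusted p = 0.0444). Of all genes in WAT, 13.8% were called lower. All 4 cytosolic ribosomal genes outside the symbol rule rose in WAT, Rps3a1 by 1.02, Rpl22l1 by 0.79, Rpl36al by 0.52 and Rpl7l1 by 0.26 (limma, adjusted p = 0.00377, 0.00597, 0.0158 and 0.0360).

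In liver 3 members rose. Rpl5 (chr5:107900502-107909005, plus strand) was at 24.1, 27.0, 20.2 and 18 CPM in the RYGB libraries and 14, 10.7, 12.7 and 11.9 CPM in the sham libraries. Every RYGB library was above every sham library, and the difference was 0.80 ± 0.14 (limma, adjusted p = 0.0114), although 93.8% of the windows of its transcript occurred in other genes. Rps20 (chr4:3831334-3835665, minus strand), a protein of the head of the small subunit, was at 54.0, 66.5, 54.2 and 41.3 CPM against 39.8, 37.3, 35.5 and 29.6 CPM and rose by 0.58 ± 0.15 (adjusted p = 0.0388). Rps15a was at 50, 67.7, 55.9 and 41.3 CPM against 37.2, 38.2, 37.5 and 28.2 CPM and rose by 0.58 ± 0.16 (adjusted p = 0.0452). In both genes the groups were apart, RYGB 2 was highest and sham 4 lowest. In 13 of 68 members every RYGB library was above every sham library, against 13.4% of all genes. Rpl15 and Rps3 came near the threshold with differences of 0.41 (adjusted p = 0.0522) and 0.48 (adjusted p = 0.0537). Rps4l and Rpl36a had the most negative estimates, -0.24 (adjusted p = 0.512) for Rps4l and -0.08 for Rpl36a, and Rps27a differed by -0.01.

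In liver, leaving out 1 library changed the number of calls. It was 1 without any of the 4 sham libraries, RYGB 2 or RYGB 3, 3 without RYGB 1, and 11 without RYGB 4, whose members stood at 1.04 times the sham mean (median over the 52 common members) against 1.29, 1.59 and 1.27 in RYGB 1 to 3. Rpl5 was called under every alternative, with adjusted p between 0.0101 and 0.0368. Within lane 2, 3 and 4 the median difference of the members was 0.22, 0.79 and 0.05. The 4 macrophage genes listed were higher after RYGB, at 319.0, 700.9, 399.8 and 322.4 CPM against 199.0 to 312.7 CPM, as were 3 neutrophil genes, at 27.6, 441.4, 60.8 and 27.5 CPM against 7.0 to 13.8 CPM. Both were highest in RYGB 2, as were the members, and their part was not tested. Of all genes in liver, 7.03% were called higher and 1.58% lower. Among the related lists, Eef1b2 was called in liver (0.45 ± 0.13, adjusted p = 0.0485), 1 of 17 other TOP genes, as were Myc (1.30 ± 0.28, adjusted p = 0.0220) and Gar1 (0.66 ± 0.17, adjusted p = 0.0386) of 25 biogenesis genes, and none of 73 mitochondrial ribosomal protein genes (median -0.02) or of 16 control genes.

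In muscle the differences were small. The members summed to 3646 ± 312 CPM after RYGB and 3318 ± 273 CPM after sham surgery (SD, n = 4 each), and these ranges overlapped. In 1 of 60 members, Rplp0, every RYGB library was above every sham library, against 4.77% of all genes. Rplp0 was at 238.5, 251.9, 251.2 and 263.4 CPM against 210.4, 215.9, 233.3 and 210.1 CPM, a difference of 0.21 ± 0.07 (adjusted p = 0.227). Rps19 had the largest difference, 0.40 ± 0.12 (adjusted p = 0.190), with 21.6, 22.8, 27.6 and 28.1 CPM against 16.7, 19.1, 22.1 and 17.1 CPM. Rpl3 followed with 0.32 ± 0.22 (adjusted p = 0.570). Rpl15, a protein of the large subunit, was at 33.7, 36.8, 33.7 and 46.7 CPM against 42.7, 45.9, 46.5 and 40.1 CPM, a difference of -0.22 ± 0.11 (adjusted p = 0.411). The muscle paralog Rpl3l (chr17:24727820-24736143, plus strand) was abundant and close between the groups, at 421.3, 442.3, 382.7 and 437.1 CPM against 429.4, 425.0, 397.2 and 374.4 CPM, a difference of 0.05 ± 0.08 (adjusted p = 0.838). The 4 muscle fibre genes summed to 85753 to 112398 CPM after RYGB and 112626 to 146262 CPM after sham surgery, with 3 lower and 1 higher by estimate. The 4 smooth muscle genes summed to 3807 to 4110 CPM against 2686 to 2919 CPM. No gene of either list was called, and their part was not tested. None of 72 mitochondrial ribosomal protein genes, 14 other TOP genes, 24 biogenesis genes or 16 control genes was called.

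In duodenum the members summed to 1731.1, 1020.8 and 1570.5 CPM after RYGB and 1217.2, 1053.2, 811.3 and 933.7 CPM after sham surgery. RYGB 2 lay within the sham range, and RYGB 1 and RYGB 3 above it. The 21 small subunit members had a median difference of 0.51 and the 38 large subunit members 0.38, with no call in either. Rps19 (chr7:24884371-24889806, plus strand) was at 16.2, 7.5 and 15.6 CPM after RYGB and 7.1, 7.2, 3.5 and 5.5 CPM after sham surgery, a difference of 1.02 ± 0.31 (adjusted p = 0.162). Rps24 (chr14:24487125-24496959, plus strand) was at 22.1, 11.5 and 20.4 CPM against 10.2, 9.7, 7.4 and 8.6 CPM, a difference of 0.89 ± 0.23 (adjusted p = 0.145). In both genes the groups were apart, with RYGB 2 close to the sham libraries. In 6 of 59 members every RYGB library was above every sham library, against 12.7% of all genes. Rplp0 and Rpl10a belonged to these, with differences of 0.83 ± 0.23 and 0.76 ± 0.21 (adjusted p = 0.150 for both), whereas Rpl35a, a Diamond-Blackfan anaemia gene, differed by -0.05 and Rps27l by -0.23 ± 0.23 (adjusted p = 0.617).

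The sum of crypt and dividing cell genes moved with the members in duodenum. By estimate 3 of the 4 genes tested were higher and 1 was lower, and none was called. The sum of the 4 genes listed of 7 was 135.1, 39.3 and 69.4 CPM in RYGB 1 to 3 and 24.9 to 41.0 CPM after sham surgery, in the same order as the members' sums over the RYGB libraries. The 5 T cell genes listed were at 89.2, 38.8 and 58.5 CPM against 11.8 to 45 CPM, again in that order, and 2 macrophage genes at 5.5 to 16.5 CPM against 0.7 to 5.7 CPM. The pancreatic acinar gene listed reached 1978.8 and 4817.2 CPM in sham 1 and sham 2 and 517.5 CPM in RYGB 3, and was at 5.9 to 11.7 CPM in the other libraries. The 4 enterocyte genes summed to 25641 to 35045 CPM against 34046 to 41052 CPM, with 3 lower and 1 higher by estimate and none called. The part of these lists was not tested. Of the related lists none of 17 other TOP genes (median 0.41), 20 biogenesis genes (median 0.49), 72 mitochondrial ribosomal protein genes (median 0.10) or 16 control genes was called.

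In jejunum the members summed to 1008.2, 1035.7 and 1393.9 CPM after RYGB and 589.5, 763.6, 733.9 and 1291.2 CPM after sham surgery. Sham 4 lay among the RYGB libraries and the other sham libraries below them, and 51 of the 52 common members were above the sham mean in sham 4. In 2 of 57 members every RYGB library was above every sham library, against 9.75% of all genes. Rpl23 was 1 of these, with a difference of 0.48 ± 0.21 (adjusted p = 0.182). Rplp1 was at 35.8, 45.1 and 63.7 CPM against 18.2, 22, 25.4 and 53.2 CPM, a difference of 0.76 ± 0.34 (adjusted p = 0.204), and Rpl3 at 2.4, 2.7 and 5.5 CPM against 1.0, 1.6, 1.2 and 2.8 CPM, a difference of 0.76 ± 0.30 (adjusted p = 0.154). In Rplp1 and Rpl3 sham 4 was the library that made the groups overlap. Without sham 4 there were 2 called members. Within lane 1, which held all but RYGB 2, all 57 members were higher after RYGB with a median of 0.47.

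Marker sums differed in jejunum as well. The 4 enterocyte genes summed to 17393 to 36970 CPM after RYGB and 44205 to 70397 CPM after sham surgery. By estimate 3 of these genes were lower, with 1 called. The other was higher by 0.21, uncalled, with every RYGB library above every sham library. The 2 Paneth cell genes were at 54.1 to 127.6 CPM against 7.7 to 27.2 CPM, and the 4 crypt genes listed at 25.7 to 57.1 CPM against 21.9 to 34.0 CPM. All 5 T cell genes listed were called lower, with sums of 6.6, 9.9 and 14.9 CPM after RYGB and 35.4 to 58 CPM after sham surgery. Their part was not tested. The poly(A) binding protein gene Pabpc1 (1.19 ± 0.20, adjusted p = 0.00651) and Eef1a1 (0.69 ± 0.19, adjusted p = 0.0494) were called among 16 other TOP genes, and the mTOR inhibitor Ddit4 (1.94 ± 0.29, adjusted p = 0.00373) and Eef2k (1.24 ± 0.23, adjusted p = 0.0105) among 16 control genes. None of 20 biogenesis genes or of 72 mitochondrial ribosomal protein genes was called. Of all genes in jejunum, 4.64% were called higher and 5.17% lower.

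In ileum the members summed to 730.2, 922.0, 677.2, 1323.2 and 1984.0 CPM after RYGB and 903.2, 880.3, 776.0, 746.3 and 888.3 CPM after sham surgery. RYGB 4 and RYGB 5 were above every sham library, RYGB 1 and RYGB 3 were below, and the spread among RYGB libraries (SD 542 CPM) was greater than that among sham libraries (SD 72.1 CPM). All 52 common members were above the sham mean in RYGB 4 and in RYGB 5, 8 in RYGB 1 and 2 in RYGB 3. Leaving out RYGB 5 lowered the median difference from 0.26 to 0.06, and leaving out RYGB 4 lowered it to 0.18. Rps15a followed this pattern, at 8.5, 8.3, 6.0, 14.9 and 24.6 CPM against 12.7, 11.1, 8.3, 8.1 and 10.2 CPM. The 4 crypt and dividing cell genes listed summed to 22.4, 25.6, 15.1, 33.0 and 65.4 CPM after RYGB, in the same order as the members, and to 13.3 to 35.6 CPM after sham surgery. By estimate 3 of these genes were higher and 1 was lower, and none was called. All 4 T cell genes listed were called lower, at 4.1 to 16.4 CPM against 22.7 to 59.2 CPM. The part of these lists was not tested.

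The member called in ileum was Rps27l (chr9:66946086-66949516, plus strand). Its level was 45.3, 42.6, 34.4, 49.8 and 54.8 CPM after RYGB and 29.9, 32.2, 32.0, 16.9 and 26.5 CPM after sham surgery. Every RYGB library was above every sham library, in this 1 of 56 members against 2.42% of all genes, and the difference was 0.72 ± 0.18 (limma, adjusted p = 0.0358), with lane confounded with surgery as above. The call was lost when any of RYGB 1, 2, 4 or 5 or sham 1, 3, 4 or 5 was left out, at differences of 0.56 to 0.78. RYGB 4 and RYGB 5 held its highest values, as for most members, but RYGB 1 to 3 were above the sham libraries as well. In jejunum it was at 86.9, 49.1 and 58.8 CPM against 34.6, 48.9, 33.6 and 54.3 CPM, a difference of 0.58 ± 0.25 (adjusted p = 0.183), and in liver, muscle and duodenum its estimates were -0.03, -0.12 and -0.23 with overlapping groups. Rpl9 and Rps27a had the lowest estimates in ileum, -0.18 ± 0.20 (adjusted p = 0.590) and -0.09 ± 0.18 (adjusted p = 0.781). Of the related lists, Mrps6 (0.80 ± 0.20, adjusted p = 0.0322) and Mrpl54 (0.75 ± 0.21, adjusted p = 0.0475) were called among 73 mitochondrial ribosomal protein genes, and Tsc1, which restrains mTOR complex 1, fell by 0.55 (SE 0.12, adjusted p = 0.0189) among 16 control genes. None of 14 other TOP genes or 20 biogenesis genes was called. Of all genes in ileum, 2.29% were called higher and 5.68% lower.

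**Figure D5:**
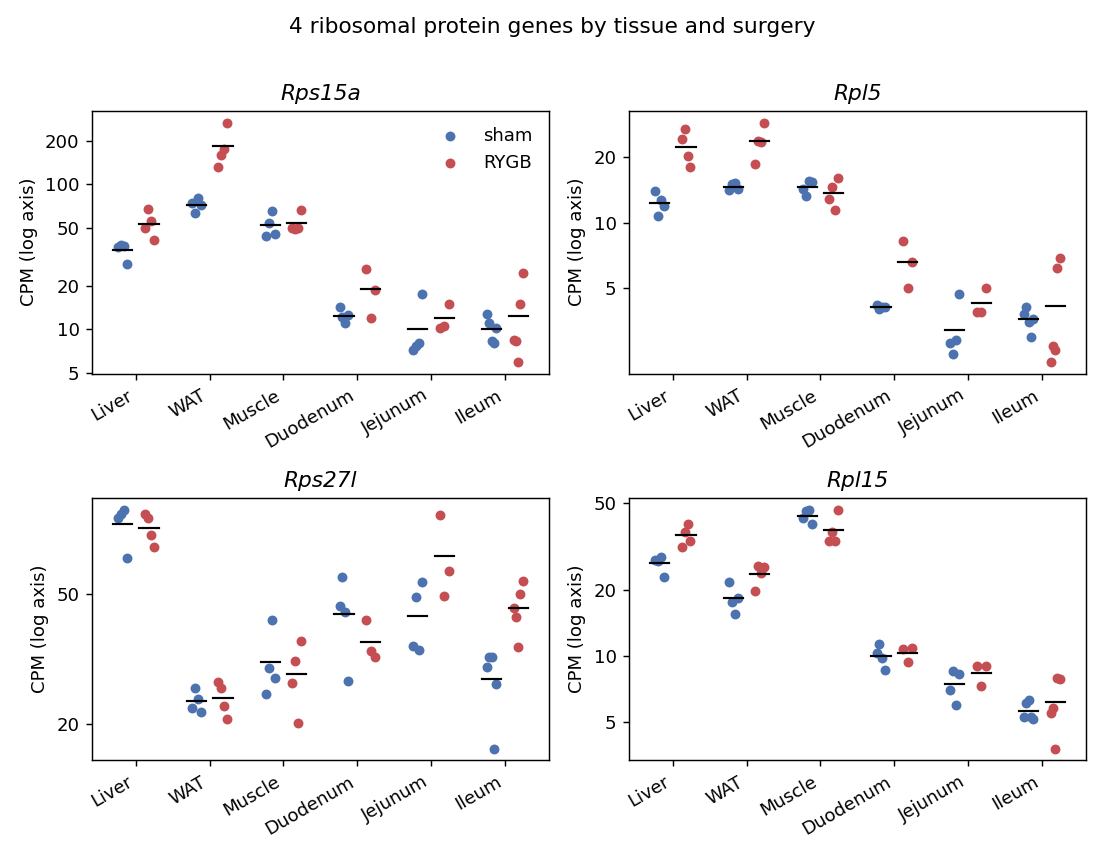
Each point is 1 library, with the CPM of Rps15a, Rpl5, Rps27l and Rpl15 on a vertical log axis, by tissue and surgery, and the bars are group means. Rps15a and Rpl5 are apart between the groups in liver and WAT, Rps27l is apart in ileum, and Rpl15 overlaps in WAT and muscle.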

How the data were processed

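The authors deposited 1 table per tissue of CPM values rounded to 0.1, made from mRNA libraries of a stranded kit. Per the labels, HTSeq and GRCm38 were used, while the versions, the aligner and the annotation are not given in the sources used here. Whole reads could not be recovered from the CPM values, so no interval on counts is given. Values were tested as log2(CPM + 1) with limma 3.58.1 in R 4.3.3 (empirical Bayes with a variance trend, two-sided, Benjamini-Hochberg over all genes averaging at least 1 CPM in the tissue). A fold change on this scale understates the change of low genes. A call is an adjusted p under 0.05. Each tissue was fitted alone. The members, the marker lists and the lists of other TOP, biogenesis, translation control and mitochondrial ribosomal protein genes were chosen with earlier results of these data known. Single members were named by rank of difference in each tissue, by role, by variation between tissues and by level per length. Other members given by value, such as Rpl23 in jejunum and Rpl31 in WAT, and the named genes of the other lists were chosen after their values were seen. Of the lines under the rule, the one listed as Rpl24 carried the identifier of Zbtb11 and the one listed as Rpl36a in muscle and gut that of Rpl36al, and both were set aside. In liver 12 incomplete lines were left out. Coordinates and transcripts are from GENCODE M21 (GRCm38). The code was tested on simulated data, in which genes changed by log2 1 were recovered in 89% of cases for liver, 66% for WAT, 79% for muscle, 59% for duodenum, 46% for jejunum and 79% for ileum. Alternatives tried were other pseudocounts, filters, scaling, lane, a replicate block and leaving out libraries. Some members are not reported here by name.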

Additional observations from a re-analysis of the deposited data

Results flagged for a closer look

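The search covered 58 groups of 4 or 5 libraries. These were groups of the members named by rank, of the members' summed CPM and of the ratio of large to small subunit CPM. In 3 of the 58 a library stood apart from the rest of its group, and chance gives about 1 in 20. All 3 were groups of a named member, so the share among the groups of named members alone was higher. In liver, sham 4 had 28.2 CPM of Rps15a where the other sham libraries had 37.2 to 38.2 CPM, a gap of 0.9 of the whole range. In WAT, RYGB 4 had 8.2 CPM of Rps4l where the other RYGB libraries had 20.9 to 22 CPM, a gap of 0.92 of the range. In ileum, sham 1 had 2.1 CPM of Rpl9 where the other sham libraries had 3.1 to 3.5 CPM, a gap of 0.714 of the range.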

How the results depend on the processing

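In WAT the count of called members stayed within 1.5 times of 67 and the median above 0 under every alternative run, and in muscle and duodenum no member was called under any. In liver 3 members were called, but 1 with a fold change of at least 1.5 as well, 1 with lane as a covariate, 1 with scaling by the median ratio, and 1 to 11 with each library left out. In jejunum 0 were called, but 1 with the scaling and 0 to 2 with each library left out. In ileum 1 was called, but 2 with the scaling (Rps27l and Rpl7a) and 0 to 1 with each library left out. With both RYGB 4 and RYGB 5 left out of ileum, an alternative chosen after seeing the data because their levels were the highest, 0 were called and the median difference was -0.13, which that choice lowers by construction. The cause of the other changes was not tested. Lane could not be fitted in duodenum, with 1 lane, or in ileum.

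Replicate numbers are shared between the groups, but the correlations of same-numbered libraries were mixed in sign (-0.055 to 0.267 in liver, -0.252 to 0.389 in WAT, -0.281 to 0.283 in ileum), so the numbers were not taken as pairs. With the replicate block 17 members were called in liver, 62 in WAT, 4 in jejunum (Rpl8, Rplp1, Rps24 and Rplp0), where the block also leaves sham 4 without a partner, and 0 in ileum, muscle and duodenum.

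The calls of Rps15a and Rps20 in liver were lost with the scaling (differences of 0.43 in both), with lane as a covariate (0.61 for Rps15a, 0.60 for Rps20) and without most single libraries, where the differences stayed at 0.46 to 0.70 for Rps15a and 0.47 to 0.70 for Rps20. Depth is unknown, and a value near 1 CPM is known to 0.1 CPM only.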
